A study of Homo sapiens with 30 samples.

Results

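Definitive ectoderm (DE, day 1) was compared with the anterior neural ectoderm (aNE, day 2) made from it, by the regions of open chromatin that each population held. The study profiled H1, a wild-type human embryonic stem cell line, and its neural derivatives by OmniATAC-seq, where a transposase cuts open chromatin and tags the fragments for sequencing. The labels describe 30 libraries of 50000 cells each, in 10 groups of 3 biological replicates, and the DE to aNE step uses 6 of them. Each group was deposited as 1 list of peaks with no value per replicate. No difference below therefore has a replicate error or a test, and p-values cannot be given. Peaks of all 10 lists on chromosomes 1 to 22 that overlapped by at least 1 bp were merged into 476170 regions, and a list was called open at a region where it had a peak. Of these, 239486 were open in DE or aNE and make up the comparison. A region was gained where aNE had a peak and DE had none, lost in the opposite case, and kept where both had one.

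DE cells had spent 24 h in CDM2 medium with A8301 at 1 µM, trametinib at 250 nM, C59 at 1 µM and LDN193189 at 100 nM. A8301 blocks the receptors of NODAL, activin and TGF-beta, LDN193189 those of BMP, C59 blocks the secretion of WNT ligands, and trametinib inhibits the kinase MEK, which carries the FGF signal to ERK. For aNE these cells were dissociated with Accutase and replated at 37500 cells per square cm. They then spent 24 h in CDM2 with A8301 at 1 µM, LDN193189 at 100 nM and C59 at 1 µM, without trametinib and with 1 µM of thiazovivin, a ROCK inhibitor that helps cells survive dissociation. The groups used for comparison were undifferentiated cells (hPSC, day 0), posterior neural ectoderm (pNE, day 2, from the same DE), and the day 4 cultures from aNE or pNE in telencephalon, midbrain or hindbrain medium (aNE_T, aNE_M, aNE_H, pNE_T, pNE_M, pNE_H). Of the additives named above, pNE had A8301, LDN193189 and thiazovivin at the aNE doses, with no C59 or trametinib listed. The pNE cells were also plated at 37500 per square cm. All groups are 1 line with 1 genotype, so other donors are not covered.

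As background, neural ectoderm forms by default when NODAL and BMP signals are blocked, and it stays anterior when WNT, FGF and retinoic acid are low. Factors such as OTX2, SIX3, LHX2 and RAX specify the forebrain and eye field, SOX2 and the ZIC and POU3F factors mark early neural cells, and POU5F1, NANOG and PRDM14 maintain pluripotency. Accessible DNA marks promoters and enhancers that proteins can reach, and a promoter may be accessible long before its gene is transcribed.

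The step from DE to aNE was a contraction of the list. The DE list held 238994 peaks on these chromosomes with a median width of 265 bp, and the aNE list held 162041 with a median of 309 bp. Together the peaks covered 90.7 Mb in DE and 72.88 Mb in aNE. As deposited, 16213 regions were gained, which is 6.77% of the regions open in either list. The lost regions numbered 87236, or 36.4%, and 136037 were kept, or 56.8% with a 95% Wilson interval of 56.61% to 57.0% for counting error only. The aNE list was the shortest of the 10, read depth is unknown, and the peak threshold of each list is not given in the sources used here. Fewer open sites and a list called with less depth or a stricter threshold cannot be told apart.

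The list of DE was therefore also cut to its 162041 widest peaks, so that both lists had the same number. This removed 76953 DE peaks, all of 192 bp or less. At equal size 35466 regions were gained (18.8% of 189059 open in either) and 36809 were lost (19.5%), while 116784 or 61.77% were kept. Equal lists force gains and losses to be of similar number, so their balance is not a result. Of the gained regions at equal size, 54.29% held a narrow DE peak that had been removed. The shared fraction of regions (Jaccard index) was 0.568 as deposited and 0.6177 at equal size.

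**Figure D1:**
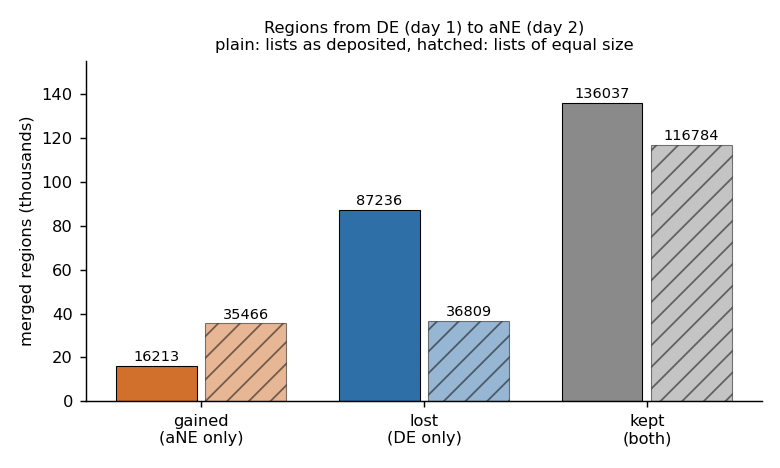
Number of merged regions gained, lost and kept from DE to aNE, with the count above each bar, for the lists as deposited (plain) and cut to equal size by width (hatched). As deposited 16213 regions were gained and 87236 lost, and at equal size 35466 and 36809.

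Kept regions were the wide ones. The median kept peak measured 394 bp in DE and 354 bp in aNE, while the median gained peak was 177 bp in aNE and the median lost peak 175 bp in DE. Few kept regions differed much in width: 4.789% were at least 2 times wider in aNE and 8.243% at least 2 times wider in DE. Kept regions lay within 1 kb of the start of a protein-coding gene in 11.03% of cases (Wilson interval 10.86% to 11.2%). The share near a start was 2.393% of gained regions (2.169% to 2.64%) and 1.831% of lost ones (1.744% to 1.922%). Changed regions were therefore mostly distal, with a median distance to the nearest start of 58.91 kb for gained and 53.05 kb for lost regions, against 40.81 kb for kept ones. About the same share of each class lay inside a protein-coding gene: 50.41% of gained, 53.36% of lost and 55.75% of kept regions. A DE peak lay within 1 kb of 31.33% of gained regions, and an aNE peak within 1 kb of 16.95% of lost regions, so part of the change was next to a site open on both days.

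The chromosomes differed in how much was gained. At equal size chromosome 19 had the lowest share of gained regions, 11.1%, and the highest share kept, 71.11%. Chromosomes 22 and 17 followed with 12.8% and 14.14% gained. Chromosome 4 had the highest share gained, 22.99%, followed by 13 with 21.92% and 8 with 21.55%. The lost share varied less, from 17.8% on chromosome 19 to 22.32% on chromosome 21.

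Gained regions were less often open in undifferentiated cells than lost ones, and more often open in later neural cultures. The hPSC list was open at 26.44% of gained regions, at 42.66% of lost and at 83.66% of kept ones, against 40.52% of all merged regions. At equal size it was open at 45.06% of gained and 52.49% of lost regions, so the gained share was below that of all merged regions as deposited and above it at equal size. The 4287 gained regions open in hPSC are sites that had a peak on day 0, none on day 1 and one again on day 2. The pNE list, made from the same DE cells, was open at 52.52% of gained and 25.07% of lost regions, against 39.15% of all. Among the day 4 lists, aNE_T was open at 50.14% of gained and 24.84% of lost regions, aNE_M at 51.74% and 27.97%, and aNE_H at 42.57% and 24.43%. The cultures derived from pNE gave similar values: pNE_T was open at 49.08% of gained and 21.12% of lost regions, pNE_M at 46.2% and 21.13%, and pNE_H at 61.75% and 35.91%. pNE_H was the longest list. At each of these 7 lists the gained share was above the lost share, as deposited and at equal size. The values share the DE and aNE lists, so they are descriptions and not separate evidence.

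**Figure D2:**
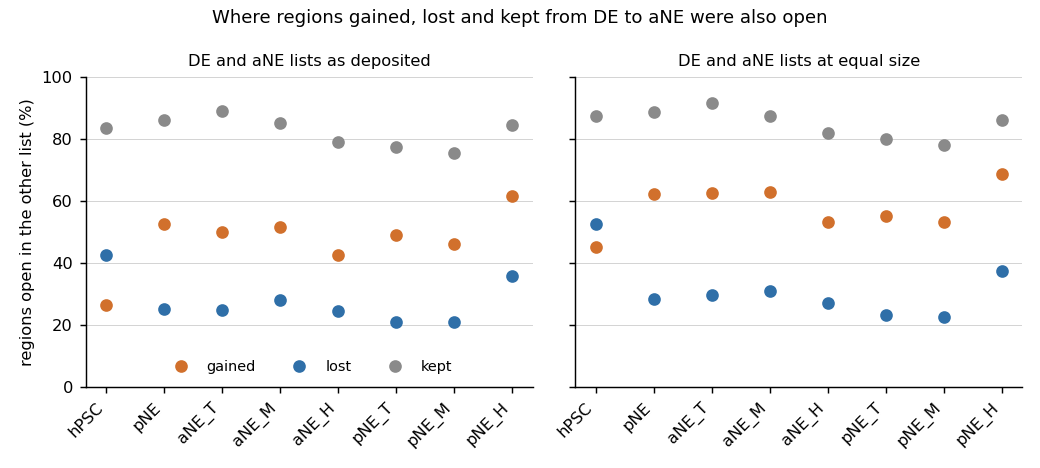
Percentage of gained, lost and kept regions at which each of the 8 other lists had a peak (x axis), with the DE and aNE lists as deposited (left) and at equal size (right). In hPSC the lost regions were more often open than the gained ones (42.66% against 26.44% as deposited), and in the 7 other lists the order was the opposite.

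Persistence followed peak width. Of all gained regions 67.58% were open in at least 1 of the 3 day 4 lists derived from aNE, 27.63% in all 3, and 14.99% in none of the 8 other lists. In the narrowest of 4 width classes of gained peaks (125 to 139 bp) 39.36% were open in aNE_T and 21.64% in no other list. In the widest class (237 to 1238 bp) 64.32% were open in aNE_T and 6.879% in no other list. Lost regions had the same gradient on the hPSC side: 30.18% of the narrowest class (112 to 132 bp) and 57.01% of the widest (247 to 1560 bp) were open in hPSC. DE peaks seen in no other list were 29.82% of lost regions as deposited and 39.29% of the narrowest class. Only 134 gained regions were open in all 3 lists derived from aNE and in no list derived from pNE, or 0.8265%. The same pattern held for 0.6878% of lost and 1.175% of kept regions. At equal size it held for 1.241% of gained (Wilson interval 1.131% to 1.361%), 0.8802% of lost and 1.107% of kept regions (1.049% to 1.169%), so the order of gained and kept regions changed with the size of the lists.

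Promoters changed less than distal sites. Of the regions within 1 kb of a start, 388 were gained, 1597 lost and 15002 kept as deposited. The shares that follow are over starts, not over regions open in either list, so they are not comparable with the region shares above. A start was called open where a list had a peak within 1 kb, for the 15101 protein-coding genes whose RefSeq start was at hand. Of these, 11864 or 78.56% were open in both lists and 2634 in neither. Starts that opened numbered 110, or 0.728%, and starts that closed 493, or 3.26%. At equal size 244 opened (1.62%) and 276 closed (1.83%). Starts that changed were poor in CpG dinucleotides. The median number of CpG in the 300 bases around the start (250 before and 50 after) was 26 at kept starts, 7 at opened, 5 at closed and 3 at starts shut in both, against 22 over all starts. Where a peak had to lie within 250 bp of the start, the median was 13.5 at 158 opened starts and 5 at 406 closed ones.

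As examples, 4 promoters are printed from RefSeq (GRCh38.p14), each as the 250 bases before the start, 5′ to 3′ on the strand of the gene. ZEB2 was a start that opened, TFAP2A one that closed, OTX2 held a peak over its start in DE only, and SOX2 was kept. Capitals mark the bases inside the aNE peak in ZEB2 and inside the DE peak in TFAP2A and OTX2. In SOX2, where peaks of both lists covered all 250 bases, capitals mark motif matches. The coordinates are chr2:144520120-144520369 on the minus strand for ZEB2, chr6:10419660-10419909 on the minus strand for TFAP2A, chr14:56810480-56810729 on the minus strand for OTX2 and chr3:181711675-181711924 on the plus strand for SOX2.
ZEB2: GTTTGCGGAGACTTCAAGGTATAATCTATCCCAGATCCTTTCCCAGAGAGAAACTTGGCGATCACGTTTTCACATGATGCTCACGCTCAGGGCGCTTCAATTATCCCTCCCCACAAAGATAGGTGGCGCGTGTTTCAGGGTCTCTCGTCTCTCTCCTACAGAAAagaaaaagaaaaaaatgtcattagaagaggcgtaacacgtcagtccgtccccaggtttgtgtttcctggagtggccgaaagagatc
TFAP2A: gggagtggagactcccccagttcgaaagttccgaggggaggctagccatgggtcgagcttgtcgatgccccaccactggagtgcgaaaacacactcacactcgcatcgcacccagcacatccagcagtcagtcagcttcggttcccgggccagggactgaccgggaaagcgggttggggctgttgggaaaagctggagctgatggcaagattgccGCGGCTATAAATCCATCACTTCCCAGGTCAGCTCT
OTX2: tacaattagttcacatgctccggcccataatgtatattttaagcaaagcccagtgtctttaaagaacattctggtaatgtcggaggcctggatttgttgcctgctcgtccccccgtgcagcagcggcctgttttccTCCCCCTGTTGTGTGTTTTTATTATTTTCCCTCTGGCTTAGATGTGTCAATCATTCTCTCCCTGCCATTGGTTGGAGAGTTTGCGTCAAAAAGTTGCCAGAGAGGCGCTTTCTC
SOX2: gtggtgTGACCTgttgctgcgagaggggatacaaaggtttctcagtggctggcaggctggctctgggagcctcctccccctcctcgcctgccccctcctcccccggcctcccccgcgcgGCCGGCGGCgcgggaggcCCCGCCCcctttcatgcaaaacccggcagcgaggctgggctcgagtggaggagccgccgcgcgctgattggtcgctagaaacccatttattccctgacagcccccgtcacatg

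In the SOX2 promoter the matches are, from the 5′ end, the nuclear receptor site AGGTCA on the opposite strand, the TFAP2 motif GCCNNNGGC, and the GC box GGGCGGG, read by SP and KLF factors, on the opposite strand. These 250 bases held 20 CpG and 68.8% G and C. Those of ZEB2 held 12 CpG and 48.0%, those of TFAP2A 13 and 59.6%, and those of OTX2 7 and 47.2%. The 300-base windows used for the medians held 14 CpG in ZEB2, 18 in TFAP2A and 9 in OTX2. TFAP2A was thus above the closed median of 5. OTX2, whose start was kept, was below the kept median of 26, so the examples do not stand for their classes. Motifs were searched on both strands of the 300-base windows, 19 in all, and a match is only a match of letters. The GC box was in 53.62% of kept promoters (Wilson interval 52.73% to 54.52%), 31.82% of opened (23.85% to 41.01%), 15.62% of closed (12.68% to 19.09%) and 44.69% of all. ATTGGC, the CCAAT box read by NFY, was in 19.05% of kept, 12.73% of opened and 11.97% of closed promoters, and in 17.48% of all. CCGGAAGT, an ETS motif, was in 7.797% of kept, 1.818% of opened and 0.4057% of closed promoters, against 6.311% of all. The SOX motif ACAATG ran the other way, with 15.45% of opened, 14.0% of closed, 5.942% of kept and 7.96% of all. TAATCC, bound by OTX-type homeobox factors, was in 6.364% of opened (3.116% to 12.56%) and 9.736% of closed promoters (7.422% to 12.67%), against 5.377% of all. Starts shut in both lists had 15.6% for the SOX motif and 9.567% for TAATCC. Opened and closed starts were thus near the shut ones for the SOX motif, and closed starts for TAATCC. The wide interval of opened starts for TAATCC held the shut value and that of all starts, so it sets them apart from neither. The SOX motif was not alone in being rarest in kept promoters. The motif of AP-1 factors was in 8.182% of opened, 11.16% of closed and 3.978% of kept ones. The nuclear receptor site was in 17.27%, 18.46% and 9.617%. The TFAP2 motif ran like the GC box, with 20.0%, 18.26% and 32.86%. Median GC content of the windows was 56.17% at opened, 53.67% at closed, 65.33% at kept and 47.0% at shut starts. Whether it sets the motif shares was not tested. The intervals of opened and closed promoters overlapped for every motif named here but the GC box. At equal size those of the GC box overlapped too, with 26.23% of opened (21.11% to 32.09%) and 17.03% of closed promoters (13.05% to 21.91%).

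**Figure D3:**
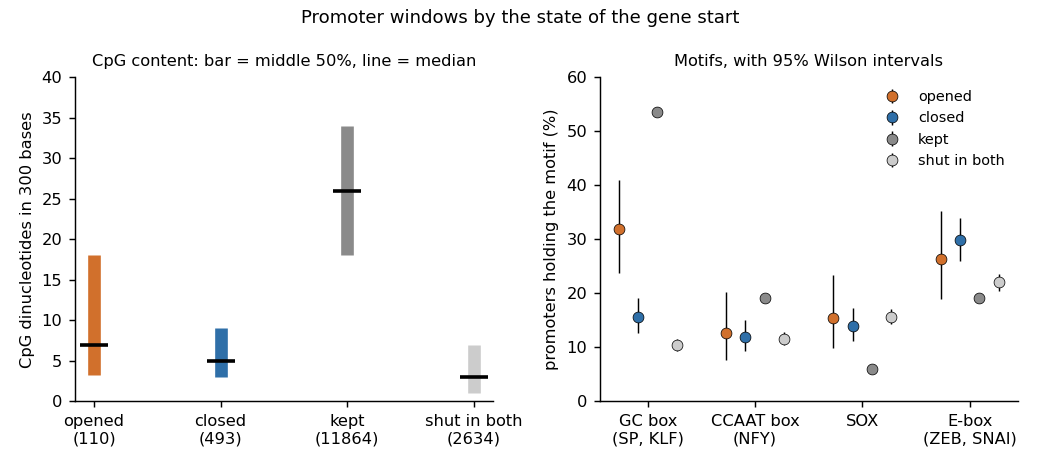
Left, CpG dinucleotides in the 300-base window around gene starts that opened, closed, were kept or were shut in both lists (number of starts in brackets), with bars for the middle 50% and lines for the median (7, 5, 26 and 3). Right, percentage of these windows that hold each of 4 motifs, with 95% Wilson intervals. The GC box was in 53.62% of kept and 15.62% of closed promoters.

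Neural genes already had open starts in DE, as most listed genes did. Of 24 starts in the lists of forebrain and eye field factors and of early neural factors, 24 were open in DE and in aNE, and the same was true of the 11 starts of pluripotency factors, the 10 of mesoderm and endoderm factors and the 10 of housekeeping genes. Over all starts 78.56% were open in both lists, and of the listed starts 94.44%. The state of a start therefore did not separate the labels DE and aNE at these markers. The gene lists were 12 in all, with 179 genes found on chromosomes 1 to 22, of which 126 had a start at hand. FOXD3 and CDH2 each stand in 2 lists.

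Of the 126 listed starts 4 opened as deposited, or 3.175% against 0.728% over all starts, and 1 closed, or 0.7937% against 3.26%. With counts of 4 and 1 these shares are given as a description. ZEB2, which encodes a repressor of E-cadherin that also promotes neural fate, had no peak at its start in hPSC or DE. In aNE it had a 167 bp peak from -253 to -87, shown in capitals above. Positions are given in bases or kb from the start, negative before it. Every later list was open there, with peaks of 321 bp in pNE, 206 in aNE_T, 435 in aNE_M, 519 in aNE_H, 269 in pNE_T, 514 in pNE_M and 573 in pNE_H. The start of ZEB2 was thus shut on days 0 and 1 and open in all 8 lists from day 2 on.

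TFAP2A, a factor of surface ectoderm and neural crest, was the listed start that closed. Its widest peak there measured 500 bp in hPSC and 209 bp in DE, and none was listed in aNE, pNE, aNE_T, aNE_M, aNE_H or pNE_T. In pNE_M and pNE_H peaks of 234 and 220 bp were present. In the window of TFAP2A, taken as the gene body with 50 kb on each side, 3 regions were gained and 5 lost. Most regions there were kept. One of them, at 2.28 kb, was open in all 10 lists, with peaks of 1016 bp in DE and 1003 bp in aNE. The 3 gained regions lay at -31.02, -38.53 and -44.5 kb and were all open in hPSC too. TFAP2B, a related factor, kept its start open, with 169 bases in peaks in DE and 214 in aNE. TP63, which drives epidermal fate, had no peak at its start in hPSC, DE or aNE.

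The other 3 were posterior genes. HOXA2, a hindbrain patterning factor, had no peak within 1 kb of its start in DE. In aNE the widest was 1514 bp, from 275 to 1788, and in pNE 1487 bp. A 343 bp DE peak from 1475 to 1817 overlapped the far end of the aNE peak, so the merged region was kept while the start was called opened. The widest peak within 1 kb of the start was 222 bp in hPSC, 309 in aNE_T, 204 in aNE_M and 165 in aNE_H. It was 600 bp in pNE_T, 270 bp in pNE_M and 2560 bp in pNE_H. Those of pNE_T and pNE_M lay before the start, from -1340 to -741 and from -480 to -211, and not at the aNE peak. The aNE peak was thus as wide as that of pNE and wider than in each day 4 list made from aNE. HOXA3 opened with a 128 bp peak found in no other list. CYP26B1, an enzyme that degrades retinoic acid, opened with a 146 bp peak from -780 to -635. Within 1 kb of that start the only other list with a peak was hPSC, with 174 bp. Just beyond this limit, at -1.341 kb, a further gained region held a 369 bp aNE peak and was open in every list but DE. At equal size 1 further start opened, that of GATA2, which as deposited held 174 bases in peaks in DE and 225 in aNE.

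OTX2, the head and forebrain homeobox factor, had a peak over its start in DE alone. That peak was 148 bp wide, from -114 to 33. It is among the narrow DE peaks that the cut to equal size removed, so at equal size this region was open in neither list. In aNE the peaks near the start were 125 and 232 bp wide, the nearer one ending at -538. In both places DE also had a peak, of 134 and 208 bp, so these regions were kept as deposited. At equal size the nearer region counted as gained, because its DE peak was among those removed. The bases in peaks within 1 kb of the start were 138 in hPSC, 425 in DE and 209 in aNE as deposited. One region at -4.22 kb was gained, with a 172 bp peak that hPSC and 5 later lists also had. Of 9 lost regions in the OTX2 window 4 were open in DE alone, and at equal size 2 were lost. RefSeq gives 1 start per gene here, so other OTX2 promoters were not read.

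SIX3, an eye field and forebrain factor, gained a region over the end of the gene with the lower coordinate, position 44941702. The region chr2:44941581-44942109 held a 337 bp peak in aNE and was open in all 7 pNE and day 4 lists, but in neither hPSC nor DE. It was the 1 region gained as deposited in the window of SIX3, against 7 lost and 17 kept. One of the lost regions, chr2:44943727-44944834, had a 466 bp peak in DE and none in aNE or aNE_T, while the 7 other lists were open. The strand of SIX3 was not at hand, so its start was not told from its end.

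POU5F1, the pluripotency factor OCT4, lost a region over the end of the gene with the higher coordinate, position 31170682. The region chr6:31170311-31170789 held a 378 bp peak in DE and was open in hPSC and DE only. The window of POU5F1 had no gained region, 8 lost and 7 kept as deposited, and 4 lost at equal size. NANOG lost regions at -31.09 and -30.39 kb, with DE peaks of 486 and 209 bp. The first was also open in hPSC, aNE_M and pNE_H, and the second in hPSC, pNE and pNE_H. A 129 bp peak at -21.92 kb, open in DE alone, was lost too. NANOG gained none as deposited and 1 at equal size. At its start the bases in peaks were 680 in hPSC, 429 in DE and 296 in aNE as deposited. The log2 ratio of aNE to DE there was -0.535 as deposited and -0.099 at equal size, so most of the drop depended on narrow DE peaks. PRDM14 had 0 gained, 1 lost and 14 kept regions, and the lost peak of 112 bp was open in 6 other lists besides DE.

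PAX6, which specifies neural and eye fate, gained regions at -8.149 kb (235 bp in aNE) and at 47.72 kb (226 bp). The first was open in hPSC and 6 later lists, the second in aNE_T, aNE_M and pNE_H only. The window of PAX6 lost 6 regions and kept 14 as deposited, and at equal size it gained 3 and lost 1. SOX2 gained a 125 bp peak at -2.149 kb, which aNE_T, aNE_M and pNE_H shared, and a 137 bp peak at 4.142 kb, which hPSC shared. It lost 4 regions, with DE peaks of 112 to 189 bp. At equal size the window of SOX2 had 6 gained and 0 lost regions.

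DUSP6, a phosphatase whose gene is a standard readout of FGF and ERK signalling, gained 1 region, at 25.71 kb. Its peak was 354 bp in aNE, and every list but DE was open there. Of the media the labels describe in full, those of DE, aNE and pNE, the DE medium alone held trametinib, and whether the inhibitor plays a part was not tested. A 750 bp DE peak at -20.51 kb was lost and was open in hPSC and pNE as well. The start itself held 1172 bases in peaks in hPSC, 1264 in DE and 1352 in aNE.

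Over whole lists, the windows of neural genes held more gained than lost regions at equal size, and fewer as deposited. The lists for surface ectoderm, mesoderm and endoderm, posterior factors, FGF, NODAL and BMP response and adhesion had the same order at equal size, so it was not particular to neural genes. Across all protein-coding genes 17.91% of regions in such windows were gained and 19.13% lost. For the 14 forebrain and eye field factors it was 23.44% gained and 10.53% lost, of 209 regions. There, 8 genes had more gained than lost regions, 0 had fewer and 6 were equal. The leading genes were OTX1, LHX2 and DLX5 with 6 gained regions each, against 1, 3 and 1 lost. The early neural factors had 19.84% gained and 9.728% lost, with 10 gained at CDH2 (N-cadherin, listed here and among adhesion genes) and 9 at LIN28B, an RNA-binding protein of early embryonic cells. HES5, a NOTCH target, had 5 gained and 3 lost. Gained regions were counted against a DE list that had lost its narrow peaks. As deposited the forebrain factors had 8.98% gained and 23.67% lost, against 6.426% and 35.83% over all genes, so the order of gained and lost depended on the size of the lists.

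The posterior and hindbrain factors were as high, with 22.61% gained and 13.78% lost at equal size, and 13 of 18 genes had more gained than lost regions. RARB, a retinoic acid receptor, had 12 gained and 9 lost, MEIS2, a cofactor of HOX proteins, 10 and 1, HOXA3 10 and 3, and HOXB3 7 and 5. The forebrain list was therefore not alone among neural lists in its share of gained regions. Pluripotency factors had 11.73% gained and 13.58% lost, WNT response genes 14.03% and 17.99%, and housekeeping genes 13.51% and 16.22%. In these lists the lost share was the larger, but each was below the 19.13% lost over all genes. Pluripotency factors had the highest kept share of the lists at equal size, 74.69%. As deposited their kept share was 63.46%, and early neural factors had the highest, 67.43%, so this rank depended on the size of the lists. CRIPTO, a NODAL co-receptor, had 0 gained and 4 lost regions, TFCP2L1, a factor of naive pluripotency, 3 and 4, and UTF1, a chromatin factor of stem cells, 3 and 0. Among WNT genes the ubiquitin ligase ZNRF3, which removes WNT receptors, had 7 and 3, and the pathway inhibitor NKD1 had 4 and 7. CDX1 and CDX2, targets of WNT in posterior tissue, had 3 and 0 gained, and 6 lost each. Of the housekeeping genes SDHA had 6 and 3, YWHAZ 5 and 4, and RPLP0 2 and 5.

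The lists for other fates did not stand far from the value over all genes in gained share. Surface ectoderm and neural crest factors had 18.49% gained and 14.34% lost, with 7 gained at PAX3 and TP63, 10 lost at GRHL2, and 5 lost against 2 gained at DLX3. Mesoderm and endoderm factors had 19.14% and 13.88%. There FOXA2, an endoderm and floor plate factor, had 5 gained and 1 lost, and GATA4 5 and 5. NODAL and BMP response genes had 20.0% and 18.72%, led by GATA3 with 10 gained and 0 lost. SMAD6, an inhibitor of BMP signalling, had 7 and 8, and PMEPA1, a target and inhibitor of TGF-beta signalling, 3 and 8. FGF and ERK response genes had 18.15% gained and 13.7% lost. In that list SPRED2, an inhibitor of the pathway, had 8 gained and 6 lost, SPRY1, another inhibitor, 6 and 1, and ETV5, a factor induced by FGF, 2 and 5. Adhesion genes had 18.87% and 18.49%, with CDH3 (P-cadherin) at 1 and 7, CDH1 (E-cadherin) at 1 and 5, and the tight junction protein TJP1 at 1 and 6. CDH6, a cadherin of neural tube and crest, had 9 and 3. Actin and ROCK pathway genes had 14.29% and 17.55%, with MYH10, a myosin heavy chain, at 6 and 9 and ROCK2, a kinase that thiazovivin blocks, at 2 and 6.

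**Figure D4:**
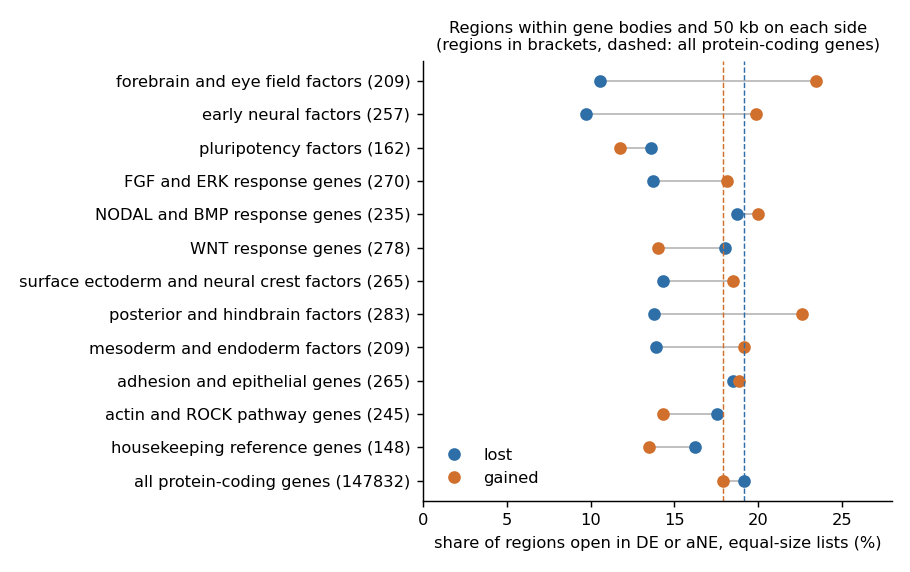
Share of regions gained (orange) and lost (blue) from DE to aNE at equal size, of the regions open in either list within the gene bodies of each list and 50 kb on each side. Dashed lines give all protein-coding genes, 17.91% gained and 19.13% lost. Forebrain and eye field factors had 23.44% gained and 10.53% lost, pluripotency factors 11.73% and 13.58%.

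At starts open on both days, the extent of open chromatin was read as the bases in peaks within 1 kb of the start. Over all 11864 kept starts the median log2 ratio of aNE to DE was 0.03. At least 1.5-fold more bases in aNE were found at 554 starts, or 4.67%, and at least 1.5-fold fewer at 373, or 3.14%. Of the 14 early neural factors 13 had more bases in aNE and 1 had fewer, with a median log2 ratio of 0.26. Over all kept starts 7019 of 11864 had more bases in aNE and 4766 fewer. The median was 0.34 at 5 surface ectoderm and neural crest starts and 0.26 at 7 adhesion starts, so its size was not particular to neural genes. The lists other than these and the forebrain factors ran from 0.09 to 0.20. Of the early neural starts, 2 passed 1.5-fold. NES, which encodes the neural filament nestin, had 810 bases in hPSC, 403 in DE and 780 in aNE. ZIC1 had 681, 508 and 789, and SOX2 had 1078, 947 and 1121. In these 3 genes DE held the fewest bases of hPSC, DE and aNE.

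The forebrain and eye field factors had 7 starts with more bases and 3 with fewer, at a median of 0.25. VAX1, a factor of the ventral forebrain and optic stalk, had 397 bases in hPSC, 306 in DE and 922 in aNE. RAX, which is needed for eye formation, had 1550, 822 and 1271. LHX2, an eye field and cortex factor, had 938, 838 and 1289. FEZF1 and NKX2-1 differed little, with 540 and 710 bases in DE and 527 and 648 in aNE. OTX2 and NKX2-1 changed direction with the size of the lists: the log2 ratio was -1.02 and -0.13 as deposited, and 0.55 and 0.19 at equal size.

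Many of these starts had been narrower in DE than in hPSC. Of the 14 early neural starts 13 held fewer bases in DE than in hPSC, with a median log2 ratio of -0.21, against -0.04 over all kept starts open in hPSC, of which 7517 of 11761 held fewer bases in DE. For forebrain factors 8 of 10 held fewer, with a median of -0.30. Surface ectoderm and neural crest, WNT response and posterior starts had similar medians, of -0.27, -0.26 and -0.25. The remaining lists ran from -0.17 to 0.03. Both contrasts use the DE list, so a narrow DE peak enters each with opposite sign, and neither supports the other. The housekeeping starts had medians of 0.09 from DE to aNE and -0.02 from hPSC to DE.

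FGF and ERK response starts held slightly more bases in aNE in 10 of 11 genes, at a median of 0.13, and 0 of them passed 1.5-fold. SPRY1 had 755 bases in hPSC, 714 in DE and 989 in aNE. EGR1, an immediate early gene, had 1133, 1527 and 1885, so that DE was not the lowest. By the width of the widest peak at the start the median of this list was 0.35. In SPRY4 that peak was 913 bp in DE and 2120 bp in aNE, while the bases within 1 kb were 672 and 681, so the 2 measures gave different answers. Among pluripotency starts FOXD3, also a neural crest factor, had 879, 579 and 1144 bases. ACTG1, cytoplasmic gamma-actin, had 1036, 169 and 1086, the largest ratio among actin genes, with a log2 ratio of 2.68. ANKRD1, a target of the YAP pathway, had 257, 634 and 278.

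**Figure D5:**
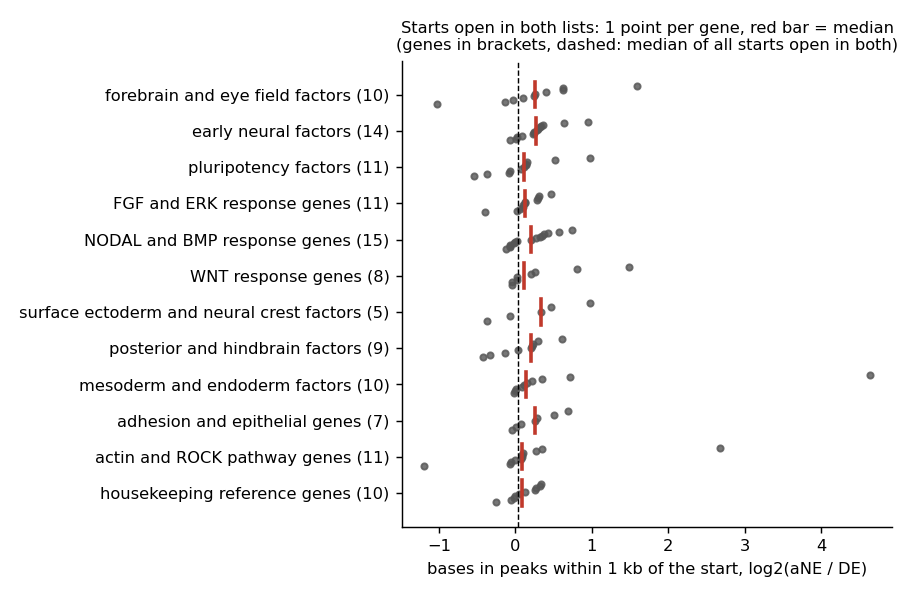
Log2 ratio of aNE to DE in bases covered by peaks within 1 kb of the start, for listed genes with a start open in both lists (1 point per gene, number in brackets, red bar at the median). The dashed line is the median over all 11864 such starts, 0.03. The early neural median was 0.26 and the housekeeping median 0.09. The point at 4.64 is PDGFRA, with 1 base in DE and 25 in aNE.

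Over all protein-coding genes, the most changed regions by nearest start at equal size were counted, without regard to the length of the gene or of its surroundings. TENM3, a teneurin of neuronal wiring, had 38 gained and 33 lost, and ADGRL2, a latrophilin, 37 and 14. EFNA5, an ephrin ligand, had 37 and 27, ARID1B, a subunit of the BAF chromatin remodeller, 34 and 24, and PIK3C3, a lipid kinase, 34 and 11. As deposited each of these genes had more lost than gained regions. TENM3 then had 20 gained and 72 lost, ADGRL2 14 and 40, EFNA5 14 and 62, ARID1B 11 and 52, and PIK3C3 13 and 45. The most lost regions were at TAFA5 with 59, against 14 gained, and at PTPRN2 with 55 against 26. AUTS2 had 45 against 19 and UQCRFS1 38 against 29.

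By share at equal size, among 6109 genes with 10 or more such regions, the median gene had 18.8% gained and 19.1% lost. CCR7, a chemokine receptor, had 63.6% gained, CRHBP, DDIT4L and RAD54L had 60%, and PTPN13, a tyrosine phosphatase, had 59.3% with 16 of 27 regions. As deposited CCR7 had 2 gained and 4 lost regions and DDIT4L 3 and 5. CRHBP then had 3 and 2, RAD54L 4 and 2, and PTPN13 12 and 5. BTD had 70% lost, SPIRE1, an actin nucleator, 66.7%, and OIT3 and SGSM3 64.3%. Apart from PTPN13 these shares rest on 10 to 15 regions each.

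The 3 widest peaks gained and the 3 lost are named here, among those more than 1 kb from a start and outside chromosome 8. A 1070 bp peak at chr4:86020887-86021956, inside the kinase gene MAPK10, was also open in aNE_T, aNE_M and pNE_M. A 1028 bp peak at chr17:65364497-65365524, in no annotated gene and 162.7 kb from the start of AXIN2, was open in all 8 lists from day 2 on. A 952 bp peak at chr2:16138499-16139450, in no annotated gene and 197.9 kb from the start of MYCN, was open in 6 lists from day 2 on. None of the 3 was open in hPSC.

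The widest lost peak, 1560 bp at chr17:81508007-81509566, lay in no annotated gene and 3.233 kb from the start of ACTG1, and was open in hPSC and DE only. It lay beside the start at which DE had fewer bases in peaks than hPSC or aNE. A 1556 bp peak at chr2:232409644-232411199 in ALPG, an alkaline phosphatase of the placental family, was open in DE alone. A 1307 bp peak at chr5:133439621-133440927 in FSTL4 was open in hPSC, DE and 4 later lists. Of the 3 widest lost peaks 1 was thus particular to DE among the 10 lists.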

How the data were processed

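Deposited were 10 lists of peak positions (start and end in bp), 1 per group, with no score. Per the submitters' processing notes the build is hg38, and the tools listed are FastQC, Bowtie2, MACS2, bedtools, featureCounts, edgeR and deepTools. Their versions, order and thresholds, and how the 3 replicates were combined, are not given in the sources used here. A change in depth or threshold between lists would move every count below. Lists were assigned to groups by the population names in the labels.

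Python 3.11.15 with numpy 2.4.6 and pandas 2.3.3 was used, and figures were drawn with matplotlib 3.10.9. Peaks on chromosomes 1 to 22 were merged where they overlapped by at least 1 bp. The region code was tested on simulated data. Equal size means that the widest peaks of each list were kept, as many as the shorter list held. Gene positions come from RefSeq (GRCh38.p14) for 19126 protein-coding genes. A start was at hand for 15101, and for the other 4025 both gene ends stood in for it in distances. Of 182 gene list entries 181 were matched, CRIPTO through its older symbol. Shares have 95% Wilson intervals for counting error only.

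The members and gene lists were chosen with earlier results of these data known. Named were the 2 genes per list with the most gained and most lost regions, 8 set genes, the 5 genes with the most and the largest share of gained or lost regions by nearest start, the 3 widest distal peaks each way outside chromosome 8, and listed genes whose start changed. Some genes that this rule names are not reported here. Further genes were named after their values were seen. Measuring bases in peaks at starts was also chosen after seeing the data.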

Additional observations from a re-analysis of the deposited data

Results flagged for a closer look

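Of the DE peaks 9.423% lay outside chromosomes 1 to 22, and of the aNE peaks 8.829%. These peaks were used in none of the comparisons above. In DE 8343 of them were on chromosome X and 16212 on unplaced scaffolds, alternate and patch sequences, and in aNE 5548 and 9940.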

How the results depend on the processing

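No paired analysis was possible because each group was deposited as 1 list with no column per replicate, and for the same reason no replicate could be left out. The planned motif search in distal regions was not run, for lack of sequence. The order of the shares held in every setting run: lost regions were open in hPSC more often than gained ones, and gained regions in pNE and aNE_T more often than lost ones. The counts moved with list size. At equal size 35466 regions were gained and 36809 lost. There hPSC was open at 45.06% of gained and 52.49% of lost regions, pNE at 62.32% and 28.54%, and aNE_T at 62.67% and 29.67%, and 1.929% of lost regions were near a start. Starts that opened were then 244 and those that closed 276. With the widest 100000 peaks of both lists 23087 regions were lost and 73656 kept. The shares were 66.18% and 70.88% for hPSC, 83.86% and 49.97% for pNE, 86.43% and 53.42% for aNE_T, and 3.178% and 2.343% near a start. Where peaks had to cover at least 50% of a region, 82959 were kept, with 29.96% and 38.98% for hPSC, 48.34% and 19.96% for pNE, 53.09% and 21.06% for aNE_T, and 4.611% and 2.099% near a start. When the DE and aNE lists alone were merged, the shares were 27.76% and 43.01% for hPSC, 53.34% and 25.78% for pNE, and 3.365% and 2.129% near a start, and aNE_T was open at 25.61% of lost regions. With 500 bp windows on peak midpoints they were 27.52% and 44.45%, 55.22% and 26.4%, 52.1% and 25.98%, and 3.982% and 3.187%. Requiring that the other list had no peak within 1 kb gave 25.0% and 43.07% for hPSC, 55.57% of gained for pNE, 53.01% of gained for aNE_T, and 1.356% and 1.296% near a start. Cutting all 10 lists to 162041 peaks, a setting chosen after seeing the data, left 35466 gained and 36809 lost, with 32.2% and 41.78% for hPSC, 49.17% and 20.77% for pNE, 22.13% of lost for aNE_T, and 1.929% of lost near a start. Leaving out regions within 1 kb of a start moved none of the 9 values it touches. Beyond what the construction of each setting fixes, the cause of these shifts was not tested. Read depth is unknown, so counts of 1 list against another carry an error that these settings do not measure.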
